A study of Homo sapiens with 20 samples.

Results

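The chemokines described here are 10 genes whose products Hodgkin cells are known to secrete or shed: CCL2, CCL5, CCL17, CCL20, CCL22, CXCL8, CXCL9, CXCL10, CXCL16 and CX3CL1. They were listed by name, with earlier results of these data known, so a share of members set beside that of all genes is a description. Each was read by the 1 probe set annotated to its symbol alone, out of 18416 named genes on the array. All 10 reached 5 log2 units on 2 or more arrays, the floor for testing, as did 15850 genes in all. Transcripts were measured in cell lines of classical Hodgkin lymphoma, labelled UHO-1, SUP-HD1, KM-H2, L428 and L1236. Every group, controls included, carried FOXO1(3A)ER stably. In this fusion protein an always-active mutant of the transcription factor FOXO1 is joined to the hormone-binding part of the oestrogen receptor, and 4-hydroxytamoxifen (4-OHT) switches it on. Each line received 4-OHT or ethanol vehicle for 24 h, with 2 arrays in each of the 10 groups and 20 arrays in all. The labels' protocol gives 200 µM 4-OHT but speaks of KLF4ER cells of KM-H2 and L428, and whether that dose holds for the cells measured here is not stated. No parental line treated with 4-OHT was analysed here, so effects of the ligand and of the fusion protein cannot be told apart. Beyond a statement in that protocol that the experiment was repeated, separate cultures are not named, so each p-value reflects the scatter between arrays of a group, which may be technical in part.

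Chemokines are small proteins that direct the movement of leukocytes through receptors on the target cell. Hodgkin cells are rare within their tumour and are surrounded by T cells, eosinophils, macrophages and other cells, and their chemokines are held to draw in much of this infiltrate. CCL17 and CCL22 attract CCR4-bearing helper and regulatory T cells, and CCL5, CXCL9 and CXCL10 attract other T cells. CCL2 attracts monocytes, CXCL8 attracts neutrophils and CCL20 attracts CCR6-bearing lymphocytes. CXCL16 and CX3CL1 are made as membrane-anchored proteins and are released by the proteases ADAM10 and ADAM17. Many of these genes are induced by NF-kB, STAT or AP-1 factors, which are active in Hodgkin cells.

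Arrays of KM-H2 and L428 had been normalised apart from the other 12, with medians of 5.67 to 5.71 and of 6.26 to 6.41 log2 units, so levels were compared between lines only within a set. Precision is limited by having 2 arrays in a group, whose difference had an SD of 0.133 to 0.204 over all genes. Background was gauged by 341 olfactory receptor genes: a value above their 95th percentile on the same array, 4.88 to 5.16 in the first set and 5.67 to 5.94 in the other, is called above background. The 4 arrays labelled L1236 went against their label. All 6 T cell markers examined were above background on each of them, with CD3E at 12.06 to 12.25 against 5.17 to 5.69 in UHO-1 and SUP-HD1. The summed log2 level of the 6 T cell markers was 64.1 to 65.3 there, 31.8 to 33.9 in UHO-1 and SUP-HD1, and 26.2 to 27.2 in KM-H2 and L428. Of 7 Hodgkin cell markers, 4 were above background on all arrays labelled L1236, and TRAF1, CD40 and IL2RA were not. The other lines had 7 of 7, or 6 of 7 in UHO-1, where IL2RA was not above background, and CD8A was the T cell marker above background on all 4 arrays of each of them. The summed level of 4 B cell markers was also higher on the arrays labelled L1236, at 26.0 to 28.1 against 21.0 to 22.2 in UHO-1 and SUP-HD1, with CD79A at 9.28 to 11.71 against 5.92 to 6.75. CD79B was higher too, at 7.09 to 7.57 against 5.82 to 6.13. MS4A1 (4.05 to 4.18 against 3.91 to 4.29) and CD22 (5.01 to 5.42 against 5.10 to 5.65) were not. LYZ, a myeloid marker, ran from 4.18 to 8.07 there, against 4.13 to 5.09. Part of this spread lay between the arms of these arrays. The summed level of the B cell markers was 26 with vehicle and 28 to 28.1 with 4-OHT, and CD79A had by far the widest range of them. That of 7 myeloid markers was 33.9 to 34.9 with vehicle and 38.1 to 38.5 with 4-OHT. Of these 7 only LYZ varied widely on the arrays labelled L1236. The widest range among the others was that of CD14, at 5.56 to 5.89, so the sum does not describe myeloid markers as a group. Results that rest on the arrays labelled L1236 are therefore given with and without them.

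The promoters of the 4 chemokine genes with the responses described below and an entry in the RefSeq promoter table (GRCh38.p14) are shown as the 250 bases before the annotated start, on the coding strand. CXCL10 lies at chr4:76023498-76023747 on the minus strand, CXCL8 at chr4:73740319-73740568, CXCL6 at chr4:73836428-73836677 and CCL20 at chr2:227813592-227813841, all 3 on the plus strand. CXCL6 is no member of the set but is the gene next to CXCL8. Capitals mark the NF-kB consensus in CXCL10, CXCL6 and CCL20, the interferon-stimulated response element (ISRE) in CXCL10, the AP-1 motif TGANTCA in CXCL8, a STAT motif, TTCNNNGAA, in CXCL6 and the TATA box TATAAA in CXCL8 and CCL20.
CXCL10: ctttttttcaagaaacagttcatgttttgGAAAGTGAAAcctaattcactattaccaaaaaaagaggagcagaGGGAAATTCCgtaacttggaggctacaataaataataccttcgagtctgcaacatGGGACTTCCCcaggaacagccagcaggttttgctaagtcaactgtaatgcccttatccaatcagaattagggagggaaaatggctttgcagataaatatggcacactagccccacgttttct
CXCL8: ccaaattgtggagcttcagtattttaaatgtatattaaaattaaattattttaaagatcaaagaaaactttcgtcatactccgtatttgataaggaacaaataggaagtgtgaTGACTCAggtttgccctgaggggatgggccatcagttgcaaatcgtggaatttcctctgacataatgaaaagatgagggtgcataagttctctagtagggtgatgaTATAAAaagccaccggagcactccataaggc
CXCL6: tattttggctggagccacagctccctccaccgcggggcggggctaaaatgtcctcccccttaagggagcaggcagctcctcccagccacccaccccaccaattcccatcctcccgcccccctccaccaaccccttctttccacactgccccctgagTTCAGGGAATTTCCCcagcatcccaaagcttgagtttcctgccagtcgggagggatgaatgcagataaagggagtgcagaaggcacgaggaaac
CCL20: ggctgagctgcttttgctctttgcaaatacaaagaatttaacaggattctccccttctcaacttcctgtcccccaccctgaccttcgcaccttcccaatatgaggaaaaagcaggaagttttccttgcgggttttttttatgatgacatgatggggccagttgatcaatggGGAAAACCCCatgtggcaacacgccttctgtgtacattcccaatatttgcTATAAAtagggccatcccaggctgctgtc

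Both strands were searched over these windows and over those of 27305 genes. The CXCL10 promoter held an NF-kB match at 177 to 168 and another at 122 to 113 bases before the start, and the response element at 221 to 212. The CXCL8 window held the AP-1 match at 137 to 131 and the TATA box at 31 to 26. In CXCL6 the NF-kB match at 90 to 81, read on the minus strand at 89 to 80, overlapped the STAT match at 94 to 86. In CCL20 the NF-kB match at 79 to 70 stood on the minus strand and the TATA box at 29 to 24. The NF-kB consensus occurred in 9.57% of all promoters of this length, the AP-1 motif in 6.6%, the STAT motif in 6.78%, the response element in 3.07% and the TATA box in 11.1%. The forkhead motif TGTTTAC was held by 2.98% of promoters, its variant TGTTTGC by 3.19% and its variant TATTTAC by 2.47%, and none of the 3 was found in these windows, nor in those of CCL22 and CXCL9. CCL22 and CXCL9, which were called in 0 lines, held matches too: the NF-kB consensus in CCL22 at 186 to 176 in overlapping copies, and in CXCL9 the response element at 171 to 162 and the TATA box at 191 to 186. The NF-kB consensus was searched as GGGRNNYYCC, with R for A or G, Y for C or T and N for any base. The CXCL8 window held TGGAATTTCC, which departs from it in the first letter only and was not counted. A match describes letters and is not evidence of binding, and the lack of a match is not evidence that a site is absent. The promoters of CCL2, CCL5, CCL17, CXCL16 and CX3CL1 were not examined.

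Of the 50 combinations of a chemokine and a line, 11 passed the test of 4-OHT against vehicle (limma, adjusted p below 0.05 over all 15850 genes), 6 of them higher and 5 lower. They came from 7 of the 10 chemokines, against 59.3% of all genes that passed in at least 1 line, and 0 chemokines passed in both directions, as 8.12% of all genes did. CCL5 alone was lower in 3 lines, 1 of 10 chemokines against 4.62% of genes. In KM-H2, 3 of 10 passed, against 22.3% of all genes, 2 of them higher (against 10.0%) and 1 lower (against 12.3%). In L428, 3 of 10 passed, against 29.5%, 2 higher (against 12.0%) and 1 lower (against 17.5%). UHO-1 had 2 of 10, against 24.5%, with 1 higher (against 13.4%) and 1 lower (against 11.1%). SUP-HD1 had 3 of 10, against 6.03%, with 1 higher (against 3.68%) and 2 lower (against 2.35%). On the arrays labelled L1236 limma called 0 of 10, against 23.1% of all genes (8.25% higher and 14.9% lower), and 2 had an unadjusted p below 0.05. The share called was close to that of all genes in KM-H2, L428 and UHO-1, above it in SUP-HD1 and below it on the arrays labelled L1236. The arms did not overlap for 6 chemokines in KM-H2 (against 58.0% of genes), 5 in L428 (60.1%), 7 in UHO-1 (70.6%), 7 in SUP-HD1 (44.5%) and 1 on the arrays labelled L1236 (49.4%). A change of at least 1 log2 unit in some line was seen in 6 of 10 chemokines, against 5.85% of genes. CCL20 is among these 6 and among the calls in L428 and UHO-1. It reached the floor for testing only in UHO-1, where its rise over background is given below as at least 1.13-fold.

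**Figure D1:**
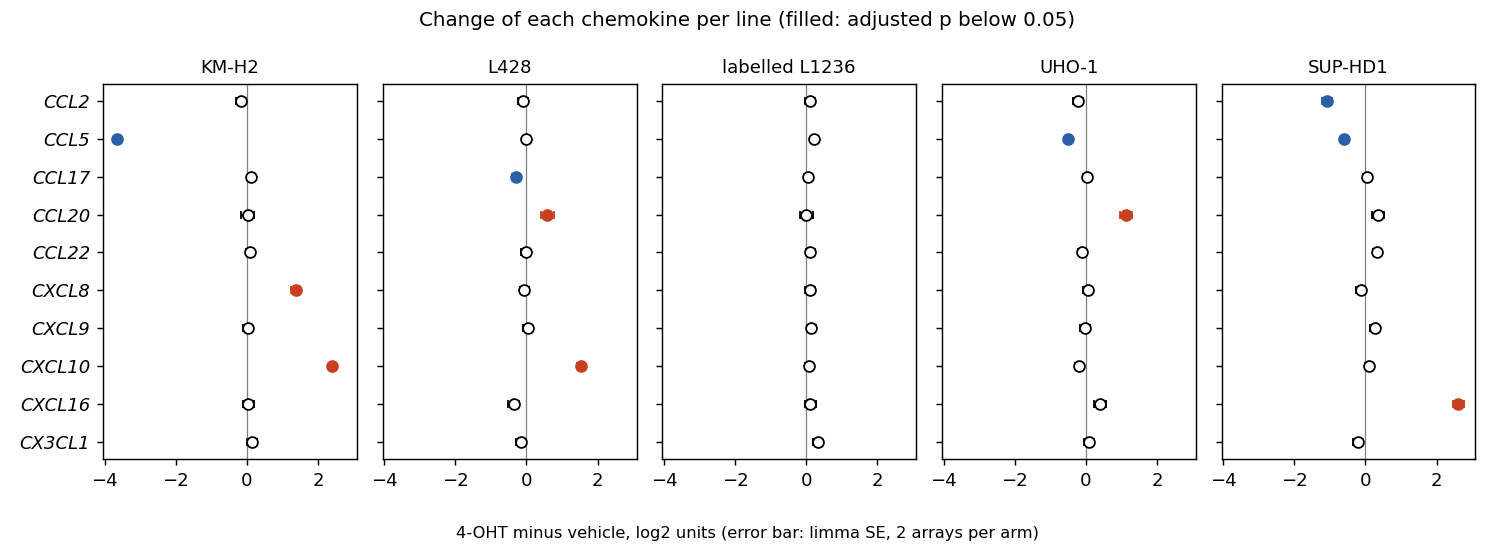
Change in log2 expression, 4-OHT minus vehicle, for the 10 chemokines in each of the 5 lines (2 arrays in each arm), with limma's standard error as bars. Filled points passed at an adjusted p below 0.05, red higher and blue lower. CCL5 in KM-H2 lies farthest below 0, at -3.64, and CXCL16 in SUP-HD1 and CXCL10 in KM-H2 lie farthest above it, at 2.61 and 2.41.

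CCL5, which attracts T cells and monocytes, was strongly lowered in KM-H2 and less so in UHO-1 and SUP-HD1. In KM-H2 the vehicle arrays read 9.64 and 9.52 log2 units and the 4-OHT arrays 5.85 and 6.03. The arms lay far apart, and the transcript stayed above background after 4-OHT. It fell 12.5-fold (-3.64 ± 0.08, limma adjusted p = 9.49e-20), the largest fall of the 15850 genes tested in that line. Errors after ± are limma's standard errors. In UHO-1 vehicle arrays read 10.65 and 10.68 and 4-OHT arrays 10.13 and 10.23, a fall of 1.4-fold (-0.49 ± 0.08, limma adjusted p = 0.000124). In SUP-HD1 the arrays read 9.14 and 9.22 with vehicle and 8.55 and 8.59 with 4-OHT, a fall of 1.53-fold (-0.61 ± 0.08, limma adjusted p = 1.87e-05). The arms did not overlap in either line, though the falls were a fraction of that in KM-H2. L428 read 10.72 and 10.82 with vehicle and 10.76 and 10.76 with 4-OHT, a difference of -0.01 ± 0.08 (limma adjusted p = 0.955). The change in KM-H2 minus that in L428 was -3.63 ± 0.11 (limma adjusted p = 3.5e-16). On the arrays labelled L1236, CCL5 was at background, at 5.09 to 5.40, and UHO-1 and SUP-HD1 did not differ in their response by a called amount. Vehicle levels of CCL5 ran higher in L428 than in KM-H2, by 2.28-fold (limma adjusted p = 7.47e-12), and lower in SUP-HD1 than in UHO-1, by 2.8-fold. With vehicle, CCL5 was thus well expressed in 4 lines, and it came nearest to background in KM-H2 with 4-OHT. In RNA from whole cultures, fewer cells that express a gene and less RNA per cell cannot be told apart.

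CXCL10, an interferon-inducible ligand of CXCR3, rose in KM-H2 and L428. The vehicle arrays of KM-H2 read 8.02 and 7.70 and the 4-OHT arrays 10.27 and 10.26, a rise of 5.3-fold (2.41 ± 0.11, limma adjusted p = 7.27e-14). In L428 vehicle arrays read 8.14 and 8.37 and 4-OHT arrays 9.75 and 9.85, a rise of 2.92-fold (1.54 ± 0.11, limma adjusted p = 2.85e-10). The arms were clearly separate in both lines, and the rise was larger in KM-H2 by 0.86 ± 0.16 (limma adjusted p = 0.000225). UHO-1 read 9.82 and 9.96 with vehicle and 9.69 and 9.72 with 4-OHT (-0.19 ± 0.11, limma adjusted p = 0.212). SUP-HD1 stood at the top of its set without 4-OHT, at 12.24 and 11.98, and read 12.21 and 12.22 with it (0.10 ± 0.11, limma adjusted p = 0.754). On the arrays labelled L1236 the transcript was at background, at 3.97 to 4.30. CXCL9, another interferon-inducible CXCR3 ligand that lies near CXCL10 on chromosome 4, was above background on 1 of 20 arrays, in SUP-HD1, where it read 5.61 and 5.16 with vehicle and 5.77 and 5.51 with 4-OHT, and it was called in 0 lines. CXCL11, the third ligand of that receptor and the gene after CXCL10, was below background on all arrays and was not called in any line, with changes between -0.10 and 0.20. The rise among these neighbouring genes was therefore measured for CXCL10 alone, and the others gave no level above background in KM-H2 or L428.

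CXCL8, the neutrophil chemokine also called interleukin-8, rose in KM-H2. The vehicle arrays read 4.55 and 4.81, not above background, and the 4-OHT arrays 5.94 and 6.15, above it. The measured difference was 1.37 ± 0.13 (limma adjusted p = 3.2e-08), which, against the background value, is a rise of at least 2-fold. No other line moved by a called amount: L428 read 4.51 and 4.67 against 4.38 and 4.68, UHO-1 5.92 and 5.95 against 6.05 and 5.93, and SUP-HD1 5.44 and 5.64 against 5.40 and 5.42. The arrays labelled L1236 read 5.69 and 5.59 with vehicle and 5.60 and 5.90 with 4-OHT. The larger change in KM-H2 was called against each of the other 4 lines. Since its vehicle arrays were at background, the size of these differences is not given. UHO-1 was narrowly above background on all 4 of its arrays, and above the 99th percentile of the olfactory receptor genes on 1. CXCL6, another neutrophil chemokine and the gene next to CXCL8 on chromosome 4, showed the same pattern of lines. It read 4.59 and 4.48 with vehicle in KM-H2 and 6.87 and 7.25 with 4-OHT. That difference was 2.52 ± 0.13 (limma adjusted p = 4.29e-13), a rise of at least 4.05-fold over background. In the other lines CXCL6 was at background, with changes of -0.23 to 0.03, none called. RASSF6, the neighbour of CXCL8 on its other side and no chemokine gene, differed by 0.04 in KM-H2 (limma adjusted p = 0.91). It rose where CXCL8 was not called, by 2.65 on the arrays labelled L1236 (limma adjusted p = 5.45e-13) and by 1.42 in SUP-HD1 (limma adjusted p = 7.15e-08).

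**Figure D2:**
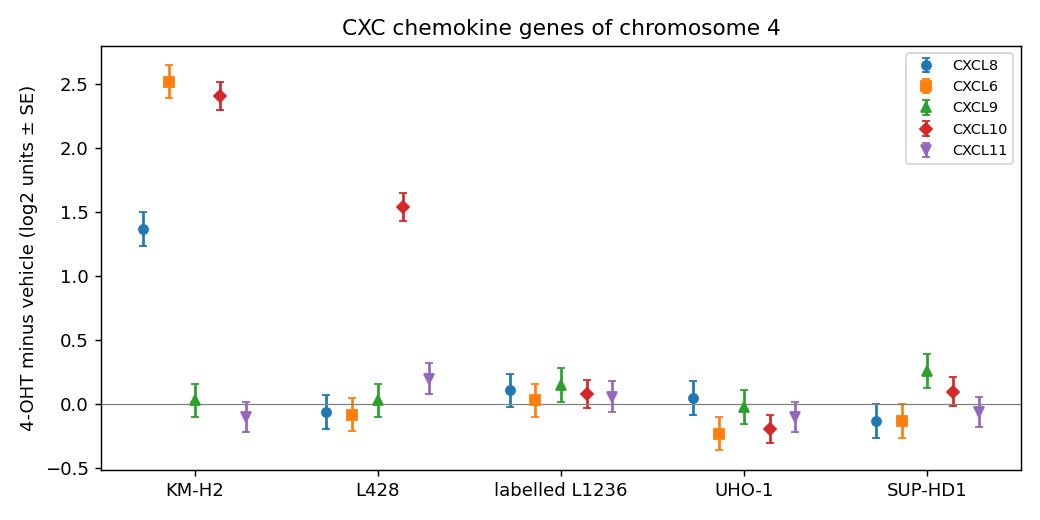
Change in log2 expression, 4-OHT minus vehicle, of CXCL8, CXCL6, CXCL9, CXCL10 and CXCL11, chemokine genes of chromosome 4, for each line, with limma's standard error as bars. CXCL6, CXCL8 and CXCL10 stand above 0 in KM-H2, at 2.52, 1.37 and 2.41, and CXCL10 in L428, at 1.54.

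CXCL16, a transmembrane chemokine and ligand of CXCR6, rose in SUP-HD1. Vehicle arrays read 5.25 and 5.16, not above background, and 4-OHT arrays 7.79 and 7.83. The arms were far apart, with a difference of 2.61 ± 0.16 (limma adjusted p = 1.35e-10), which is a rise of at least 3.97-fold over background. In UHO-1 the arrays read 5.56 and 5.57 with vehicle and 6.0 and 5.93 with 4-OHT. The arms did not overlap, but the difference of 0.40 did not pass (limma adjusted p = 0.0667), and it did pass without the arrays labelled L1236 in the fit (limma adjusted p = 0.0237) and after median centring (0.0328), cyclic loess (0.01) or quantile scaling (0.0342). L428 read 4.98 and 5.31 with vehicle and 4.61 and 4.95 with 4-OHT (-0.36, limma adjusted p = 0.0905, and 0.0316 without the arrays labelled L1236). KM-H2 read 4.04 to 4.25 and the arrays labelled L1236 4.34 to 4.92, all at background. The larger change in SUP-HD1 was called against each of the other 4 lines, again with no size given because of values at background.

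CX3CL1, the other transmembrane chemokine, was above background on all 20 arrays and was not called in any line. KM-H2 read 9.18 and 9.15 with vehicle and 9.21 and 9.41 with 4-OHT, and L428 9.63 and 9.59 against 9.43 and 9.46. UHO-1 read 10.04 and 9.98 against 10.19 and 10.05, and SUP-HD1 6.98 and 7.01 against 6.62 and 6.96. On the arrays labelled L1236 it read 7.11 and 6.82 with vehicle and 6.98 and 7.59 with 4-OHT, and without the first of those 4-OHT arrays the change there was 0.626 (limma adjusted p = 0.000775). Its level thus depended on the line and not, by a called amount, on 4-OHT.

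CCL17 and CCL22, both ligands of CCR4, lie beside CX3CL1 on chromosome 16, in the order CCL22, CX3CL1, CCL17, with PLLP before and CIAPIN1 after them. Both were above background on all 20 arrays, although CCL22 passed the 99th percentile of the olfactory receptor genes on 14. CCL17 read 6.77 and 6.62 with vehicle in KM-H2 and 6.79 and 6.87 with 4-OHT, and 9.98 and 9.76 against 9.95 and 9.82 in UHO-1. SUP-HD1 read 7.86 and 7.78 against 7.85 and 7.87, and the arrays labelled L1236 read 7.43 and 7.09 against 7.23 and 7.36. The arms overlapped in UHO-1 and SUP-HD1 and on the arrays labelled L1236. In L428 CCL17 read 8.78 and 8.77 with vehicle and 8.53 and 8.43 with 4-OHT, a change of -0.30 ± 0.1 (limma adjusted p = 0.0299). This call was lost when any 1 of the 4 arrays of L428 was left out, with adjusted p = 0.0512 to 0.185, and after cyclic loess or quantile scaling. Within its set CCL22 was highest in UHO-1, at 12.13 and 12.01 with vehicle and 11.98 and 11.94 with 4-OHT. SUP-HD1 read 7.37 and 7.37 with vehicle and 7.68 and 7.70 with 4-OHT, which did not overlap but differed by 0.33 (limma adjusted p = 0.127). KM-H2 and L428 lay close to background, at 5.37 to 5.51 and 5.35 to 5.66, and the arrays labelled L1236 at 6.19 to 6.59. CCL22 passed the test in 0 of 5 lines, and no pair of lines differed in its response.

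CCL2, which attracts monocytes, was above background in SUP-HD1 alone. There it read 8.76 and 8.64 with vehicle and 7.54 and 7.71 with 4-OHT. It fell 2.11-fold (-1.08 ± 0.14, limma adjusted p = 2.11e-05), the third largest fall in that line, and remained above background. All other arrays read 3.97 to 5.44, at background. The change in SUP-HD1 was called as different from that in each of the other 4 lines, but those lines could show no fall from background.

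CCL20, the ligand of CCR6, was above background on 1 of 20 arrays. It reached the floor for testing only in UHO-1, at 5.01 with vehicle and at 5.66 and 6.33 with 4-OHT. CCL20 was thus tested only through the line in which it was high. Its tests, those of the average and of the difference between lines included, are therefore given as a description. UHO-1 read 4.73 and 5.01 with vehicle and 5.66 and 6.33 with 4-OHT, a difference of 1.13 ± 0.18 (limma adjusted p = 8.53e-05). The arms did not overlap, and since vehicle arrays were at background, and 1 of the 4-OHT arrays too, the rise is given as at least 1.13-fold. In L428 it read 3.82 and 3.98 against 4.16 and 4.82, a difference of 0.59 ± 0.18 that was called (limma adjusted p = 0.0137) with all 4 arrays at background. That call was lost without the first vehicle array (0.514, limma adjusted p = 0.105) or without the second 4-OHT array (0.263, limma adjusted p = 0.374). SUP-HD1 read 4.22 and 4.37 against 4.71 and 4.58 (0.35, limma adjusted p = 0.344), and KM-H2 and the arrays labelled L1236 differed little between arms, at 3.45 to 3.55 and 4.47 to 4.57.

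**Figure D3:**
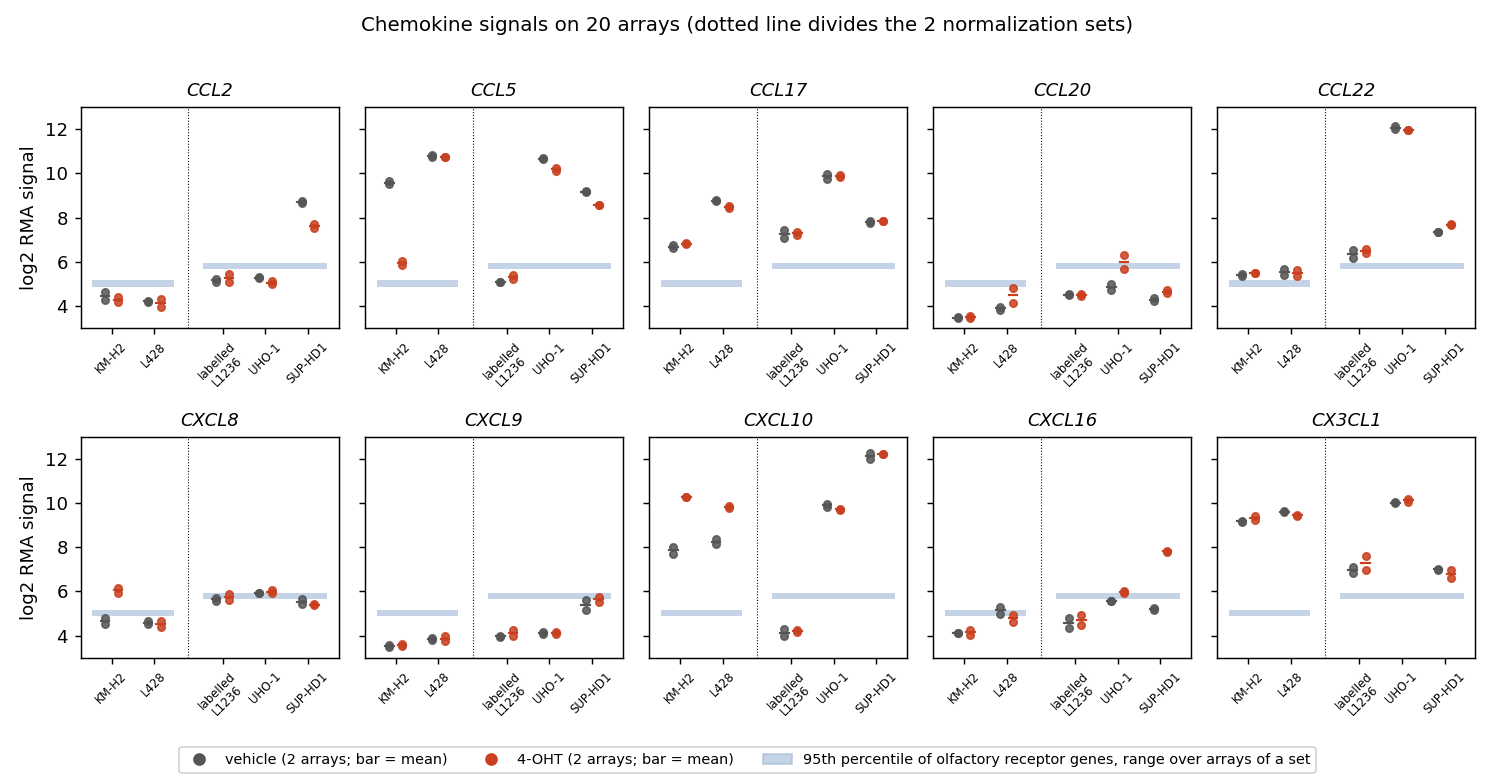
Log2 expression of the 10 chemokines on each of the 20 arrays, by line, with grey points for vehicle, red points for 4-OHT and bars for the mean of an arm. The blue band is the range of the background gauge over the arrays of a set. CCL17, CCL22 and CX3CL1 lie above background throughout, CCL5 and CXCL10 lie above it on all arrays except those labelled L1236, and CXCL9 and CCL20 lie above it on 1 array each.

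The lines differed widely in their chemokines before 4-OHT. Between UHO-1 and SUP-HD1, 9 of 10 vehicle levels differed (limma, against 53.8% of all genes), 6 of them lower in SUP-HD1 (against 27.1%) and 3 higher (against 26.7%). CXCL9 (1.25) is among the 3 higher, though it was not above background on any vehicle array. It reached the floor for testing only in SUP-HD1, so its vehicle contrasts are a description. CCL22 was 26.1-fold lower in SUP-HD1 (-4.70, limma adjusted p = 1.49e-19), CX3CL1 8.1-fold and CCL17 4.14-fold lower. CXCL10 was 4.67-fold higher in SUP-HD1 (limma adjusted p = 2.99e-14), and CCL2 at least 7.35-fold higher (limma adjusted p = 1.29e-15). UHO-1 thus carried more of the CCR4 ligands and of CX3CL1, and SUP-HD1 more CXCL10 and CCL2. The differences of CCL20 and CXCL8 were lost without the second vehicle array of UHO-1 (adjusted p = 0.116 and 0.0662) or without the first of SUP-HD1 (adjusted p = 0.0673 and 0.145), all from limma. CXCL16, at background in both, passed without the arrays labelled L1236 (limma adjusted p = 0.0178).

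L428 had higher vehicle levels than KM-H2 for 6 of 10 chemokines and lower levels for 0, against 54.2% of genes called, 26.9% higher and 27.3% lower. CCL17 was 4.22-fold higher (2.08, limma adjusted p = 2.42e-14). CX3CL1 was higher by 0.45 (limma adjusted p = 0.00766), and CXCL10 by 0.40 (limma adjusted p = 0.00347). CXCL10 was no longer called without the second vehicle array of KM-H2 (0.239, limma adjusted p = 0.124) or without that of L428 (0.285, limma adjusted p = 0.0809). CCL20 differed by 0.43 at background (limma adjusted p = 0.0487), which was lost in several fits, among them that without the arrays labelled L1236 (limma adjusted p = 0.0588). Against the arrays labelled L1236, 6 of 10 vehicle levels were higher in UHO-1 and 7 of 10 in SUP-HD1, and none was lower. Both counts include CXCL16, and that of SUP-HD1 also CXCL9, which were not above background on any vehicle array of these lines. For CXCL16 in SUP-HD1 the difference was 0.62, and 0.38 without the second vehicle array labelled L1236. Of all genes, 56.8% were called for UHO-1, 27.2% higher and 29.5% lower, and 57.5% for SUP-HD1, 27.4% higher and 30.1% lower. CCL22 was 52.1-fold higher in UHO-1, and CXCL10 at least 82.8-fold higher in SUP-HD1. These contrasts compare with arrays that carry T cell markers, whose part in them was not tested.

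Averaged over the 5 lines, 6 of 10 chemokines were called, 4 higher and 2 lower, against 38.6% of all genes, 17.4% higher and 21.2% lower. CCL5 averaged -0.91 ± 0.036 (limma adjusted p = 4.57e-15) and CCL2 -0.29 ± 0.064 (0.000829). CXCL10 averaged 0.79 ± 0.049 (limma adjusted p = 1.3e-11), CXCL16 0.56 ± 0.071 (8.99e-07), CCL20 0.42 ± 0.08 (0.000179) and CXCL8 0.27 ± 0.059 (0.000861). Without the arrays labelled L1236 6 were again called, with CCL5 at -1.187, CXCL10 at 0.967, CXCL16 at 0.672, CCL20 at 0.526, CCL2 at -0.384 and CXCL8 at 0.307. Several averages rested on 1 line. Without KM-H2, CXCL8 averaged -0.006 (limma adjusted p = 0.955), CCL5 -0.224 (8.83e-05) and CXCL10 0.386 (6.84e-06). Without SUP-HD1, CXCL16 averaged 0.05 (limma adjusted p = 0.688) and CCL2 -0.091 (0.363), and without UHO-1 CCL20 averaged 0.245 (0.0133). The median change of the 10 chemokines was 0.08, and that of all genes was -0.025.

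The response differed between lines for 6 of 10 chemokines by limma's F test, against 42.7% of all genes. They were CCL5, CXCL10, CXCL16, CXCL8, CCL2 and CCL20, and without the arrays labelled L1236 CCL17 was added (limma adjusted p = 0.033). Of the 10 pairs of lines, CCL5 differed in 8, CXCL10 in 7, CXCL16 in 5, CCL2 and CXCL8 in 4 each, CCL20 in 2 and CCL17 in 1. CCL22, CXCL9 and CX3CL1 differed in 0 pairs. These counts include pairs with the arrays labelled L1236, where CCL5 and CXCL10 were at background and CCL5 could show no fall. The called pairs of CCL20 set UHO-1 against KM-H2 and the arrays labelled L1236, in which it was at background. CCL5 fell in KM-H2, UHO-1 and SUP-HD1, CXCL10 rose in KM-H2 and L428, and CCL20 was called higher in L428 and UHO-1. Calls in a single line were CXCL8 in KM-H2, CCL17 in L428, and CCL2 and CXCL16 in SUP-HD1, and most arrays of the other lines were at background for CCL2, CXCL8 and CXCL16.

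Genes that act with the chemokines were read from 8 lists, whose counts on average stand against 38.6% of all genes called, 17.4% higher and 21.2% lower. Of 20 other chemokines tested, of 34 listed, 1 was higher and 3 lower on average (median -0.03, against -0.025 for all genes), a smaller share than that of all genes. Several of them, among them CCL16, CCL18, CXCL3, CXCL11 and CXCL17, were at background on all arrays and could show no fall. CXCL12, the ligand of CXCR4, read 10.75 and 10.79 with vehicle in KM-H2 and 9.64 and 9.62 with 4-OHT, a change of -1.14 ± 0.15 (limma adjusted p = 2.44e-06), and it was called in no other line. Its average was -0.32 ± 0.066 (limma adjusted p = 0.00037), and -0.33 without the arrays labelled L1236. Of 6 chemokine receptors tested, of 13 listed, 1 was higher and 3 lower. CCR4, the receptor for CCL17 and CCL22, averaged -0.49 ± 0.065 (limma adjusted p = 1.89e-06). It fell in KM-H2 (-0.79) and UHO-1 (-0.60), and on the arrays labelled L1236 (-0.54), and did not pass in L428 (-0.21) or SUP-HD1 (-0.30). KM-H2 read 5.32 and 5.31 with vehicle, just above background, and 4.27 and 4.78 with 4-OHT, at background, so the size of that fall is uncertain. SUP-HD1 was at background on all its arrays and could show no fall. UHO-1 read 9.23 and 8.79 with vehicle and 8.58 and 8.23 with 4-OHT, and L428, where CCR4 was highest of its set, 11.14 and 11.22 against 10.95 and 10.99. CCR6, the receptor for CCL20 and the 1 receptor called higher, averaged 0.29 (limma adjusted p = 9.31e-05) with all arrays at background. It reached the floor for testing only on 4-OHT arrays, of KM-H2, UHO-1 and SUP-HD1. CCR6 was thus tested only through the arm in which it was higher, and its values are a description. Of 4 sheddase genes, ADAM10 (0.12, limma adjusted p = 0.00304) and ADAM17 (0.10, limma adjusted p = 0.013) were higher on average. Without the arrays labelled L1236 they averaged 0.20 and 0.13. ADAM10 was called higher in UHO-1 (0.32) and SUP-HD1 (0.23) and lower on the arrays labelled L1236 (-0.20). ADAM17 was called in L428 alone (0.33).

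Of 19 genes of NF-kB and its inhibitors, 4 were higher and 5 lower on average. TNFAIP3, the A20 protein that restrains NF-kB, averaged 0.34 ± 0.029 (limma adjusted p = 2.9e-09) and rose in KM-H2 (0.46), L428 (0.62), UHO-1 (0.21) and SUP-HD1 (0.44). NFKBIZ, a nuclear cofactor of NF-kB, averaged 0.20 (limma adjusted p = 0.00105) and rose in KM-H2 (0.63) and L428 (0.34). Of 15 STAT and IRF genes, 8 were higher and 5 lower. SOCS1, the inhibitor of JAK kinases, averaged -0.76 ± 0.047 (limma adjusted p = 1.02e-11). It fell in KM-H2 (-1.98), L428 (-0.57) and UHO-1 (-0.63) and on the arrays labelled L1236 (-0.67), with SUP-HD1 at 0.03. KM-H2 and L428, in which CXCL10 rose, were among the lines in which SOCS1 fell, and UHO-1, in which CXCL10 was not called, was too. Of 9 AP-1 genes, 3 were higher and 2 lower. FOSL2 averaged 0.66 ± 0.057 (limma adjusted p = 2.61e-09), with rises in L428 (1.38), UHO-1 (1.29) and SUP-HD1 (0.90) and a value of -0.34 in KM-H2 that did not pass.

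Of 8 cytokines that induce chemokines, 1 was higher and 4 lower. LTA, which encodes lymphotoxin alpha, averaged -0.62 ± 0.033 (limma adjusted p = 1.15e-12) and fell in KM-H2 (-1.54), L428 (-0.78) and SUP-HD1 (-0.40). Of 8 factors of mRNA decay, 2 were higher and 4 lower. ZFP36L2, which promotes decay of mRNAs with AU-rich elements, averaged 0.70 ± 0.036 (limma adjusted p = 4.85e-13) and rose in KM-H2 by 2.33 ± 0.08 (limma adjusted p = 3.52e-16), in UHO-1 (0.40) and SUP-HD1 (0.36) and on the arrays labelled L1236 (0.48). L428 read -0.05. Without the arrays labelled L1236, SOCS1 averaged -0.79, FOSL2 0.81, LTA -0.72, ZFP36L2 0.76 and TNFAIP3 0.43. The counts higher and lower without them were 1 and 2 for the other chemokines, 1 and 4 for the receptors, 2 and 0 for the sheddases, 5 and 4 for NF-kB, 7 and 5 for STAT and IRF, 2 and 2 for AP-1, 1 and 4 for the cytokines and 1 and 4 for mRNA decay. In that fit 39.2% of all genes were called, 18.2% higher and 21.0% lower. The medians of the 8 lists over all 5 lines lay between -0.15 for the cytokines and 0.11 for the STAT and IRF genes.

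**Figure D4:**
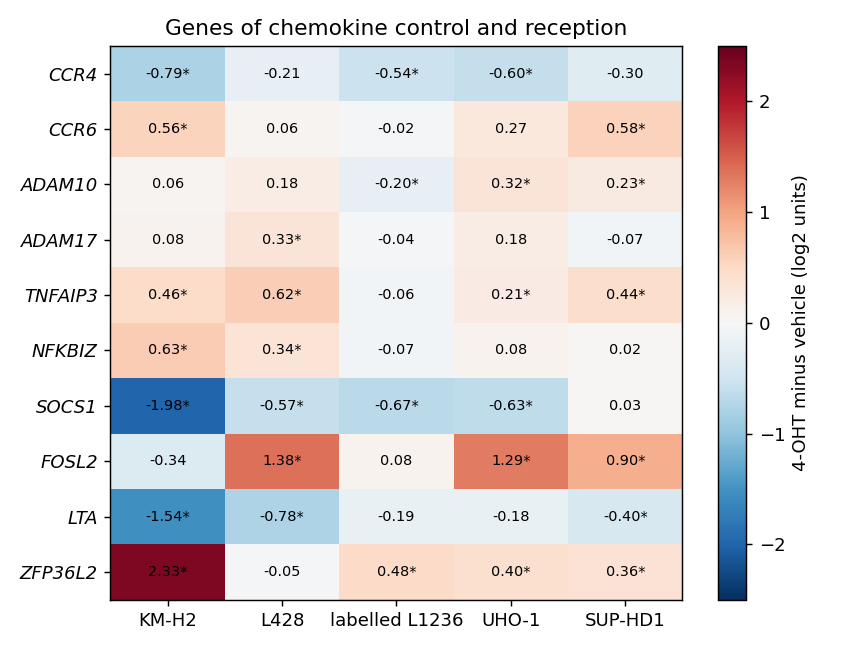
Change in log2 expression, 4-OHT minus vehicle, of 10 genes of the receptor, sheddase, regulator, cytokine and decay lists (rows) in each line (columns), by colour and number, with a star for limma adjusted p below 0.05. SOCS1 in KM-H2 lies at -1.98 and LTA in KM-H2 at -1.54, and ZFP36L2 in KM-H2 lies at 2.33.

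The genes whose values followed each chemokine most closely over the 20 arrays, after each line's mean was removed, are given as a description. The arrays share their lines and their 4-OHT arms, so a large response in 1 line sets most of each value. CCL5 was followed by PIEZO1, LGALS2 and SLC6A5 (r = 0.981, 0.979 and 0.977), of which LGALS2 changed by -3.01 in KM-H2. CXCL10 was followed by CLU, FBXO32 and ANXA1 (r = 0.982, 0.972 and 0.966), which rose in KM-H2 by 3.48, 5.94 and 3.73 and in L428 by 2.14, 3.89 and 1.73. CXCL8 was followed by PHEX, SELP and LOXL2 (r = 0.966, 0.959 and 0.952), and CXCL16 by PHOSPHO1, KCNIP2 and DHRS9 (r = 0.959, 0.958 and 0.948), which rose in SUP-HD1 by 2.99, 1.87 and 1.07. CCL20 was followed by CALCRL, PPP1R2 and KCTD21 (r = 0.935, 0.922 and 0.911). For CCL2, RYR3, SEC16B and NRXN3 gave r = 0.849, 0.833 and 0.827, and for CCL17, MEIS2, ZFP57 and CBLN1 gave 0.834, 0.779 and 0.76. Over the 16 arrays without those labelled L1236, the closest gene was again PIEZO1 for CCL5 (r = 0.983), CLU for CXCL10 (0.987), PHEX for CXCL8 (0.971), CALCRL for CCL20 (0.941) and RYR3 for CCL2 (0.901), but it was KCNIP2 for CXCL16 (0.968) and BCKDK for CCL17 (0.955).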

How the data were processed

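Total RNA was hybridised to Affymetrix Human Gene 1.0 ST arrays, per the labels. The authors' deposited values are log2 expression from the robust multichip average (RMA), per the labels' design text and the submitters' processing notes, and its version and the genome build are not given in the sources used here. There were 2 normalization sets by the values: sorted values differed by at most 0.253 within a set and by at least 0.712 between them. Of 33268 probe sets, 19457 had 1 gene symbol, 1751 had several and 12060 had none. Where a gene had more than 1 probe set (767 genes), the brightest on average was taken. With limma 3.58.1 in R 4.3.3, 10 group means were fitted to all 20 arrays (eBayes with an intensity trend, 10 residual degrees of freedom), and p-values were adjusted by Benjamini-Hochberg over 15850 genes in each contrast. The script was tested on simulated data. The chemokines, the gene lists and the markers were chosen with earlier results of these data known. From each list the text names genes called on average with a change of at least 0.5 log2 units, otherwise the 2 with the smallest p, and for each called chemokine the 3 genes most correlated with it. CXCL12, CXCL6, RASSF6 and CXCL11 are named by that rule or as neighbours. Alternatives covered scaling, the floor, the variance trend, several probe sets, the replicate block, and leaving out an array, a line or a set.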

Additional observations from a re-analysis of the deposited data

Results flagged for a closer look

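The change with 4-OHT differed between the 5 lines for 6 chemokines by limma's F test, adjusted over all 15850 genes. The adjusted p was 1.48e-16 for CCL5, 1.11e-11 for CXCL10, 2.42e-09 for CXCL16, 3.81e-06 for CXCL8, 0.00051 for CCL2 and 0.00471 for CCL20. Without the arrays labelled L1236 these were 9.57e-16, 1.86e-11, 3.23e-10, 2.86e-06, 0.000894 and 0.016, in the same order. The difference was no longer called for CXCL8 without KM-H2 (limma adjusted p = 0.652), for CCL2 and CXCL16 without SUP-HD1 (0.537 and 0.06) and for CCL20 without UHO-1 (0.0835). It was called for CX3CL1 without the first 4-OHT array labelled L1236 (limma adjusted p = 0.00193) and for CCL17 without the first vehicle array labelled L1236 (0.0258).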

How the results depend on the processing

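The calls of CCL5 in KM-H2, UHO-1 and SUP-HD1, of CXCL10 in KM-H2 and L428, of CXCL8 in KM-H2, of CXCL16 and CCL2 in SUP-HD1 and of CCL20 in UHO-1 held when any 1 of the 20 arrays was left out. Where that leaves 1 array in an arm, the array is assumed to vary like those of the other groups, so these fits are a weak check. On the arrays labelled L1236 the count of called chemokines was 0 to 2 when 1 array was left out (CCL5 and CX3CL1 without the first 4-OHT array labelled L1236) and 1 after cyclic loess, and in UHO-1 it was 1 of 8 tested with a floor of 6 and 1 of 8 with a floor at the olfactory receptor percentile. CCL20 and CXCL9 did not reach the floor of 6 or that at the olfactory receptor percentile and were not tested there. With KM-H2 and L428 alone 3 chemokines were called on average, and CXCL16 averaged -0.161 (limma adjusted p = 0.26). With the other set alone CXCL10 averaged -0.001 (limma adjusted p = 0.996), and without KM-H2 CXCL8 averaged -0.006 (limma adjusted p = 0.955). Above background on all arrays were 3 chemokines, and 2 at the 99th percentile.

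With the replicate number as a block, 3, 3, 0, 2 and 3 chemokines were called in KM-H2, L428, the arrays labelled L1236, UHO-1 and SUP-HD1, 6 on average and 6 by the F test, as without it. The vehicle contrasts gave 6, 7, 7 and 10. Deviations of same-numbered arrays correlated at -0.082, 0.037, -0.56, 0.29 and 0.28, in the order of lines given for the calls. The sign varied between lines, so these values do not settle whether the numbers pair the arrays. With the numbers of L1236 crossed, which was chosen after seeing the data, the block gave 2 called chemokines there and 4294 genes.

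Counts of all genes moved more. SUP-HD1 had 956 called genes, 630 after median centring, and 433 and 451 without its first and second 4-OHT array. UHO-1 had 3878, and 1857 to 2328 without any 1 of its arrays. The arrays labelled L1236 gave 3661, and 2378 without the second 4-OHT array. The average had 6122, and 3979 with L1236, UHO-1 and SUP-HD1 alone, and the F test 6762, with 3684 and 3285 in the sets alone. The share called higher went from 54.6% to 72.7% in UHO-1, from 61% to 72.7% in SUP-HD1 and from 35.7% to 23.5% in L1236 after median centring. The number of arrays and, for CXCL8, CXCL9, CXCL16, CCL2 and CCL20, signals near background limit these values.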
